A study of Homo sapiens with 7 samples.

Results

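Clone H1 of the human urothelial carcinoma line UM-UC-3 was compared with H6 and H10, the other 2 clones that the study selected for high aldehyde dehydrogenase (ALDH) activity. The genes described are those with at least 1 CPM (a read count scaled to library size) in 1 or more of the 3 clones, which kept 13058 of the 13872 genes listed (94.1%). UM-UC-3 is an established bladder cancer line, and the study sorted it with ALDEFLUOR, a fluorescent substrate that ALDH-active cells retain. It grew 3 ALDH-high clones (H1, H6, H10), 3 ALDH-low clones (L1, L3, L8) and the unsorted wild type line, and the labels give DMEM with 10% fetal bovine serum as the medium of the ALDH-high clones. Total RNA of each was sequenced once, with no further treatment named, so a clone is 1 library and a value of H1 alone has no replicate. All 7 libraries descend from 1 line. ALDH activity is widely used to enrich cells that form tumours and resist drugs, and clones grown from such a gate can differ from each other in inherited expression states as well as in the marker that selected them.

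The libraries were close in depth, with steps in the CPM values that correspond to 24365061 to 25456516 reads, and 1 read was worth about 0.04 CPM. Urothelial identity was thin in all of them: of 21 luminal urothelial markers 9 were listed and of 18 basal markers 3 were listed. KRT18 and KRT8, keratins of simple epithelia, were the most abundant luminal markers, at 142.95 to 582.39 CPM and 56.16 to 391.35 CPM. None of 10 fibroblast markers was listed, CD68 was the only listed one of 12 leukocyte markers, and TIE1 and EGFL7 were the listed ones of 10 endothelial markers. In bulk RNA, fewer cells that express a gene and less of its RNA per cell cannot be told apart.

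H1 was the ALDH-high clone that stood apart, and it stood nearest of all clones to the wild type culture. By the median absolute difference H6 and H10 were the closest pair of the 7 libraries, at 0.19 on the log2(CPM + 1) scale, used for every log2 value here. H1 differed from H6 by a median of 0.312 and from H10 by 0.304. Wild type differed from H1 by a median of 0.32, from H6 by 0.457 and from H10 by 0.488. Counted as genes more than 1 log2 unit apart, there were 362 between H6 and H10, 1302 between H1 and H6, 1160 between H1 and H10 and 1019 between wild type and H1. Wild type against H6 and against H10 gave 2243 and 2474 such genes.

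The gap of a gene is the distance of H1 from the nearer of H6 and H10 where H1 lies outside both, and 0 where it lies between them. H1 lay more than 1 log2 unit above both in 113 genes (0.865% of those compared) and below both by as much in 645 (4.94%). By the same measure H6 lay above its pair in 143 genes and below it in 31, and H10 above in 68 and below in 39. Gaps above 2 numbered 26 on the high side and 75 on the low side. Against H10 alone H1 was higher by more than 1 in 280 genes and lower in 880, and against H6 alone in 226 and 1076.

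**Figure D1:**
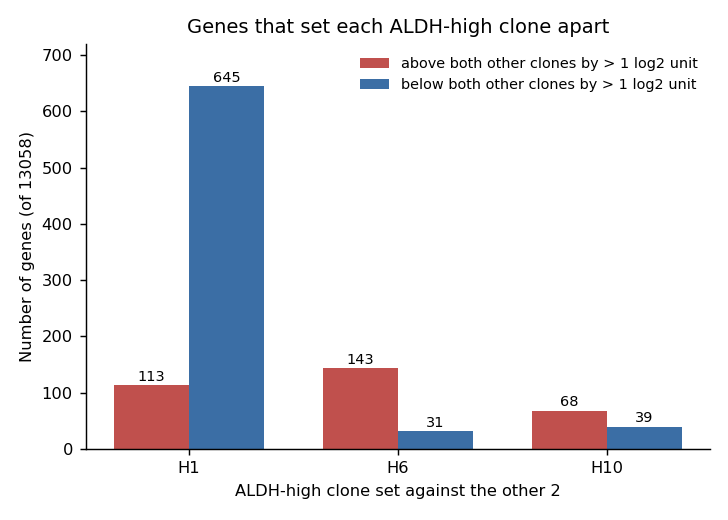
Number of genes (y axis) for which each ALDH-high clone (x axis) lay more than 1 log2 unit above (red) or below (blue) both other ALDH-high clones. The 645 low genes of H1 exceed the 31 of H6 and the 39 of H10, while the high counts are 113, 143 and 68.

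The spread between clones was also taken into account with limma, which pooled it over H6 with H10 and over the 3 ALDH-low clones and assumed that H1 varies as they do. H1 was higher in 22 genes (0.168%) and lower in 256 (1.96%) at a Benjamini-Hochberg adjusted p under 0.05. The fit uses the same H1, H6 and H10 values as the gap and lends it no independent support. In genes where the ALDH-low clones were all at 0 CPM, these clones added no spread to the pool. At an unadjusted p under 0.05 the counts were 645 and 1355. They rest on few libraries: without H6 they were 8 and 9, without H10 5 and 4, without L1 11 and 92, without L8 12 and 78, and without L3 42 and 432.

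The 645 low genes were mostly expressed at moderate levels, and wild type was low in them together with H1. Their median was 7.31 CPM in H1 and 8.39 CPM in wild type, against 25.57 in H6, 23.68 in H10, 24.12 in L1, 20.07 in L3 and 24.56 in L8. So the low levels were shared by the H1 and wild type libraries and by none of the other 5 on this median. Wild type was nearer to H1 than to the mean of H6 and H10 in 549 of the 645 (85.1%), where it was nearer in 63.9% of all genes compared. L1, L3 and L8 were nearer to H1 in 12.9%, 21.6% and 10.2%, against 40.7%, 43.7% and 39.5% of all genes compared. These shares use the same H6 and H10 values that defined the gap and are a description. In the 113 high genes the median was 11.96 CPM in H1, 6.67 in wild type and 2.71 to 3.81 in the other 5 libraries, and wild type was nearer to H1 in 59 (52.2%). H1 lay outside all 6 other libraries in 71 of the high genes and 338 of the low ones, but by more than 1 log2 unit in only 29 and 39.

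**Figure D2:**
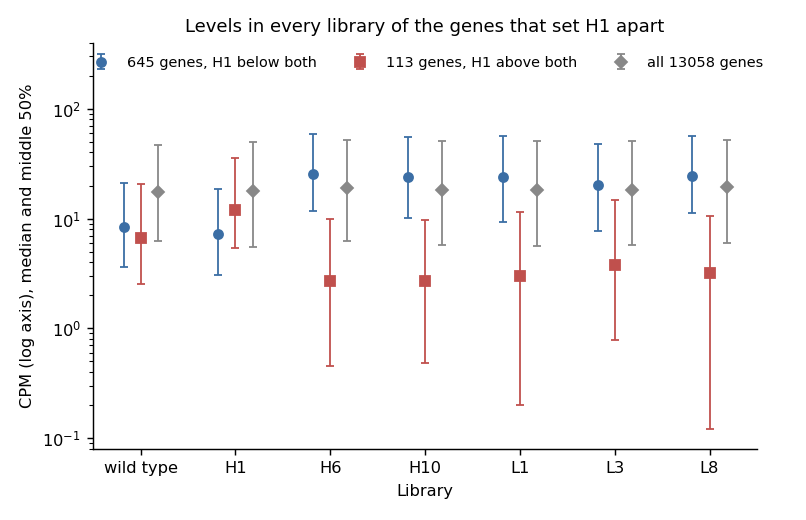
CPM on a log axis in each of the 7 libraries for the 645 genes with H1 below both H6 and H10 (blue), the 113 with H1 above both (red) and all 13058 genes (grey); points are medians over genes and bars span the middle 50% of genes. In the blue series wild type and H1 sit at 8.39 and 7.31 CPM and the other libraries at 20.07 to 25.57.

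The low genes also shared a sequence property that did not enter their choice. The first 200 bases of the longest annotated transcript had a median GC content of 73% in the low genes, 57.25% in the high genes and 62.5% over all genes compared. Among genes with 80 to 85% GC, 143 of 469 (30.5%) were low in H1, and among those above 85%, 27 of 71 (38%), against 4.94% of all genes. The share was 2.09% at 50 to 60% GC, its lowest, and 4.12% at 40 to 50% and 5.95% under 40%, so it did not go one way over the whole range. The median difference of H1 from the mean of H6 and H10 went from 0.09 at 50 to 60% GC to -0.72 at 80 to 85% and -0.87 above. The wild type medians in the same bins were 0.03, -0.66 and -0.84, with the same 2 clones as reference, and H6 minus H10 stayed between -0.03 and 0.10 over all bins. With the median of each GC bin subtracted in every library, 129 genes were high and 485 low in H1, of which 92 and 441 were the same genes, and limma then gave 16 and 137 calls. The deposited column headers name CAGEr, an R package for tags of transcript 5′ ends, but no label gives the library type. GC content moved with the low counts, and its part in them beyond this subtraction was not tested.

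**Figure D3:**
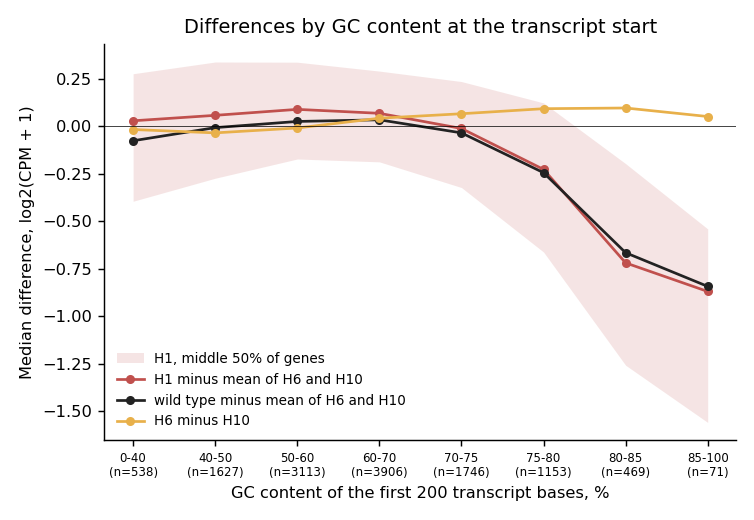
Median log2(CPM + 1) difference (y axis) by GC content of the first 200 transcript bases (x axis, number of genes in brackets) for H1 (red, band: middle 50% of genes) and wild type (black) against the mean of H6 and H10, and for H6 minus H10 (yellow). The red and black lines run together to -0.87 and -0.84 in the highest bin, while the yellow line stays between -0.03 and 0.10.

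Base composition before the start differed widely between 2 genes high in H1, with 47.6% GC in FLRT3 and 79.2% in HEY2. In 2 low genes it was 69.6% in CHMP4B and 75.6% in PITPNA, against a median of 58% over RefSeq promoter windows. The 250 bases before the start of these 4 genes with large gaps are shown. They are given 5′ to 3′ on the gene's strand from RefSeq on GRCh38.p14, with each CG pair in capitals on account of the GC content described above. FLRT3 and HEY2 were high in H1, and CHMP4B and PITPNA were low. FLRT3 lies at chr20:14337613-14337862 (minus strand), HEY2 at chr6:125749382-125749631 (plus strand), CHMP4B at chr20:33811098-33811347 (plus strand) and PITPNA at chr17:1562793-1563042 (minus strand).
FLRT3: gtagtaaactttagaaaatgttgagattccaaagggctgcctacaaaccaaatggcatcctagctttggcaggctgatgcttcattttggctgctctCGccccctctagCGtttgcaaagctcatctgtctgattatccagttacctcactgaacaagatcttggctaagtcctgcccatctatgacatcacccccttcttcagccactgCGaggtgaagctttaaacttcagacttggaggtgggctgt
HEY2: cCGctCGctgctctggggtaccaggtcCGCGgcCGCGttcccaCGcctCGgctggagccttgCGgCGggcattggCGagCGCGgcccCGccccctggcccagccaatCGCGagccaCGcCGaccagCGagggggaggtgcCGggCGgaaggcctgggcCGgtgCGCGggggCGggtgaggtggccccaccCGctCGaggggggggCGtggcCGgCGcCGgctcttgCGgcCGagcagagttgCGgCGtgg
CHMP4B: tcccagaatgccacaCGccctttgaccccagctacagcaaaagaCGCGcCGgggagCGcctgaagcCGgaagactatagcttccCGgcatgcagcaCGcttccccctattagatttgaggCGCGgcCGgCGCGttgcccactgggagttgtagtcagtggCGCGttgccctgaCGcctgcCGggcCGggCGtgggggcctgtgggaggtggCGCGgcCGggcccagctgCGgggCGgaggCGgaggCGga
PITPNA: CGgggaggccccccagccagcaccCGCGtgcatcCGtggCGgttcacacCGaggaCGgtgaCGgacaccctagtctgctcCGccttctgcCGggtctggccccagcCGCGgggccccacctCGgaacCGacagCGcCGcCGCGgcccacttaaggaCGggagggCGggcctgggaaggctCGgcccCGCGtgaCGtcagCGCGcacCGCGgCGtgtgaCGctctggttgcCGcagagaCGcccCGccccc
CG pairs, the same on both strands, numbered 3 in FLRT3, 35 in HEY2, 26 in CHMP4B and 33 in PITPNA, against a median of 11 over 35116 RefSeq promoter windows of this length. At least as many were present in 77.1%, 5.8%, 19.6% and 8.15% of those windows. HEY2, with a GC content of 79.2% in these upstream bases, was nevertheless among the genes highest in H1. The GC content of transcript starts, described above, is a different measure. By that measure, 10 of 1153 genes at 75 to 80% GC were high in H1 and 110 were low. At 80 to 85% GC, 0 of 469 genes were high and 143 low, and above 85%, 0 of 71 were high and 27 low. So genes high in H1 were few at GC-rich starts and absent from the most GC-rich ones.

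FLRT3, HEY2, SLITRK2 and SEMA3A were protein-coding genes with large high gaps. Some noncoding genes ranked above them, such as CTD-2130O13.1, a long noncoding RNA with a gap of 4.58. Protein-coding genes were 68.1% of the high genes and 82.9% of all. FLRT3, HEY2 and SLITRK2 were under 1 CPM in H6 and H10, so they entered only through H1. The mean of H6 and H10 was under 1 CPM in 38 of 113 high genes, 0 of 645 low genes and 391 of all 13058. FLRT3, a leucine-rich repeat membrane protein of cell adhesion and axon guidance, was at 7.87 CPM in H1, 2.68 in wild type, 0.08 in H6, 0 in H10, and 0, 0.51 and 0 in L1, L3 and L8. H1 and wild type were the only libraries above 1 CPM, and the gap was 3.04. HEY2, a transcriptional repressor downstream of Notch, was at 7.15 CPM in H1 and at 0.6 in wild type, 0.29 in H6, 0.08 in H10 and 0.12 in each of L1, L3 and L8. H1 was above every other library, 24.9 times H6 (exact 95% counting interval 11.8 to 62.8), and limma gave a log2 difference of 2.79. SLITRK2, a synaptic adhesion protein, was at 8.74 CPM in H1 and 9.11 in wild type, but at 0.82 in H6 and 0.56 in H10. It was at 0 in the ALDH-low clones, which added no spread to the limma estimate. SEMA3A, a secreted guidance cue, was at 55.47 CPM in H1, 26.38 in wild type, 9.93 in H6, 6.28 in H10, 5.92 in L1, 15.67 in L3 and 24.12 in L8. Its gap of 2.37 did not pass the test (adjusted p = 0.12), with the ALDH-low clones themselves spread widely. FAM110B, a protein-coding gene with a gap of 2.52, was at 5.44 CPM in H1 and 4.96 in wild type. It was at 0.12 in H6 and 0.08 in H10, but at 7.16, 9.47 and 5.56 in L1, L3 and L8. So in FAM110B H6 and H10 were the libraries that stood apart, not H1.

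VCAN, HAPLN1, CYP2J2, TMTC1 and EGR1 were also high in H1. VCAN, the proteoglycan versican, was at 12.72 CPM in H1, 1.28 in wild type, 0.33 in H6 and 1.96 in H10. It was at 0 in L1, L3 and L8, which added no spread to the limma estimate. The log2 difference of H6 minus H10 was -1.15 in VCAN. HAPLN1, which links proteoglycans to hyaluronan, was at 128.95 CPM in H1, 35.13 in wild type, 20.03 in H6, 50 in H10 and at most 0.04 in the ALDH-low clones, and its adjusted p was 0.11. Both were highest in H1 and near 0 in every ALDH-low clone. CYP2J2 is a cytochrome P450 that makes epoxides from arachidonic acid. It was at 6.68 CPM in H1, 2.4 in wild type, 0.66 in H6, 0.68 in H10 and 0.16 to 0.55 in the ALDH-low clones. TMTC1, at 3.1 CPM in H1, was at most 0.29 elsewhere. CYP2J2 and TMTC1 also met the limit of 1 CPM only through H1. EGR1, an immediate early transcription factor, was at 132.17 CPM in H1 against 61.27 in wild type, 41.66 in H6, 22.2 in H10, 41.96 in L1, 10.1 in L3 and 4.04 in L8, a spread in which the difference did not pass the test (adjusted p = 0.42).

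Several of the largest gaps belonged to genes with near-identical copies, where the authors' counting could place the same reads on different copies, and these are uncertain. RPL9P8, a ribosomal protein pseudogene, was at 721.15 CPM in H1 and at most 0.04 in every other library. A related pseudogene, RPL9P9, was at 242.48 CPM in H6 and at most 0.44 elsewhere, while the parent gene RPL9 was at 312.1 in H1, 251.63 in H6 and 287.28 in H10. POLR2J2 was at 43.79 CPM in H1 and 1.93 to 4.96 elsewhere, beside its paralog POLR2J at 93.84 to 151.56 in all 7. NSUN5P2, at 12.84 CPM in H1, was at most 0.36 elsewhere. The U1 small nuclear RNA copies moved in opposite directions, with RNU1-7 at 6.0 CPM in H1 and at most 0.04 elsewhere, and RNU1-2 at 0 in H1 and at 44.76 to 188.75 elsewhere. NOMO2 at 64.18 CPM and RPS6 at 2812.13 in H1 were near the L3 values of 60.46 and 1969.16, not those of H6 and H10 (8.17 and 10.52, and 484.67 and 558.48).

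**Figure D4:**
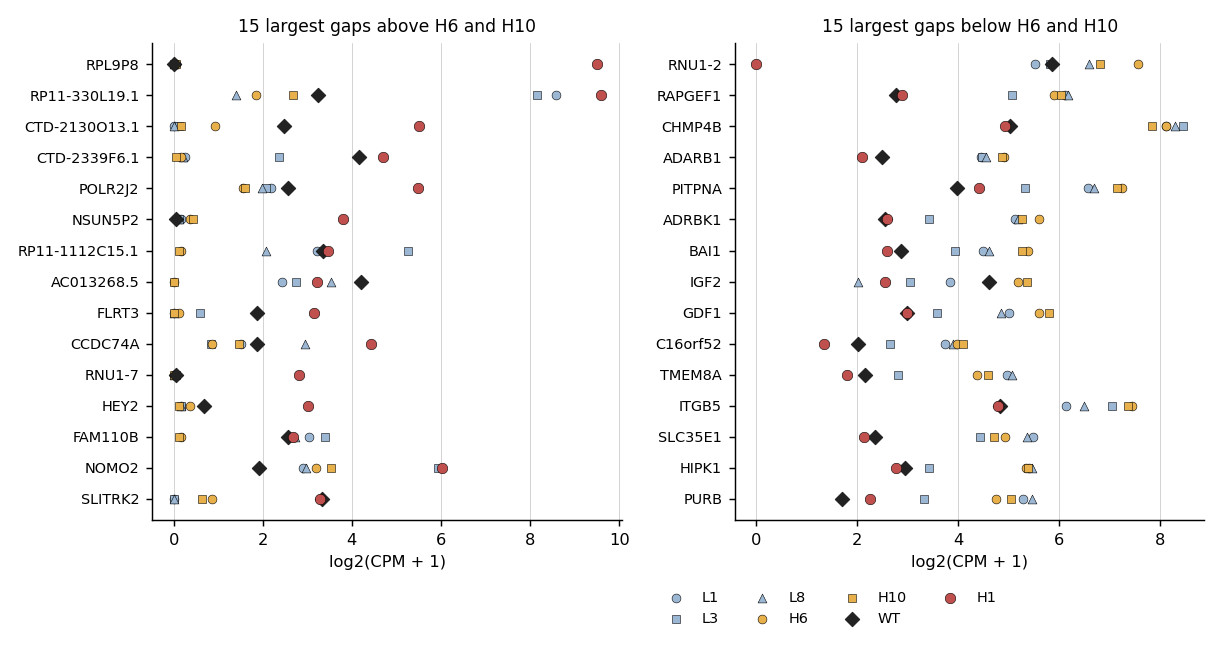
log2(CPM + 1) in each library for the 15 genes with the largest gap of H1 (red circle) above H6 and H10 (left) and the 15 with the largest gap below (right); wild type is the black diamond, H6 and H10 are yellow, and the ALDH-low clones are blue. On the right the wild type diamond lies beside H1 for CHMP4B, RAPGEF1 and ITGB5, and to the right of it for IGF2 and RNU1-2.

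CHMP4B, RAPGEF1, ADARB1, PITPNA and ITGB5 were among the 15 largest low gaps, and in these 5 wild type was nearer to H1 than to H6 or H10. IGF2, a growth factor in the same ranking, was at 4.89 CPM in H1 but at 23.34 in wild type, 35.42 in H6 and 39.92 in H10. CHMP4B, a subunit of the ESCRT-III membrane scission complex, was at 29.52 CPM in H1 and 31.49 in wild type, but at 274.78 in H6, 226.8 in H10, 277.4 in L1, 349.46 in L3 and 313.2 in L8. The 2 low libraries did not overlap the 5 others, and limma gave a log2 difference of -3.04 ± 0.21 (SE; adjusted p = 0.0043). RAPGEF1, a guanine nucleotide exchange factor for RAP1, was at 6.4 CPM in H1, 5.84 in wild type, 58.24 in H6, 64.96 in H10, 68.52 in L1, 32.41 in L3 and 71.52 in L8, with adjusted p = 0.024. ADARB1, an adenosine deaminase that edits RNA, was at 3.26 CPM in H1, 4.64 in wild type, 29.18 in H6, 28.04 in H10 and 21.0 to 22.56 in the ALDH-low clones (adjusted p = 0.0057). PITPNA, a phosphatidylinositol transfer protein, was at 20.23 CPM in H1, 14.79 in wild type, 150.58 in H6, 140.68 in H10, 94.04 in L1, 39.24 in L3 and 101.88 in L8 (adjusted p = 0.047). ITGB5, an integrin subunit, was at 26.54 CPM in H1, 27.38 in wild type, 172.17 in H6, 162.64 in H10, 69.36 in L1, 131.44 in L3 and 88.68 in L8 (adjusted p = 0.02). In all of these the first 200 transcript bases were 79.5 to 88.0% GC, whereas ADRBK1, a kinase of G protein-coupled receptors with a gap of -2.68, had 44.5% GC. With the GC medians subtracted, the gaps of CHMP4B and ITGB5 were -2.22 and -1.89.

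A smaller group was low in H1 alone, and it held surface and matrix genes. CD44, the hyaluronan receptor often used as a stem-like and basal marker, was at 192.05 CPM in H1, 448.14 in wild type, 492.71 in H6, 443.2 in H10, 583.52 in L1, 541.43 in L3 and 637.36 in L8. H1 was below every other library, at 0.433 times the nearer clone (counting interval 0.419 to 0.448; adjusted p = 0.024). ITGA2, the collagen-binding integrin subunit alpha 2, was at 4.69 CPM in H1, 25.82 in wild type, 21.1 in H6, 16.6 in H10 and 36.4 to 44.8 in the ALDH-low clones (adjusted p = 0.024). COL4A2, a basement membrane collagen, was at 2.82 CPM in H1, 9.27 in wild type, 24.3 in H6, 14.72 in H10 and 43.96 to 59.84 in the ALDH-low clones (adjusted p = 0.023). TLE4, a transcriptional corepressor, was at 0.08 CPM in H1 and 2.08 in wild type, 9.89 in H6, 3.76 in H10 and 10.25 to 12.4 in the ALDH-low clones (adjusted p = 0.039). DUSP5, a phosphatase that inactivates ERK, was at 19.07 CPM in H1 and at 44.28 to 61.07 in the other 6 libraries (adjusted p = 0.022). PRSS23, CD82, ATP8B1 and SQRDL were likewise lowest in H1, with adjusted p from 0.10 to 0.25.

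The gene of the sort and the gene in the series title behaved differently in H1. ALDH1A1, the dehydrogenase chiefly read by ALDEFLUOR, was at 96.32 CPM in H1, 37.85 in wild type, 33.37 in H6, 42.2 in H10, 0 in L1, 0.08 in L3 and 0 in L8. H1 was highest, at 2.28 times H10 (counting interval 2.12 to 2.46), and the difference did not pass the test (adjusted p = 0.072). Of 11 aldehyde dehydrogenase genes 9 were above both clones by any amount, as were 41.7% of all genes, with a median gap of 0.17, and ALDH1A1 alone was past 1. GRIK2, a kainate receptor subunit, was at 20.07 CPM in H1, between H6 at 11.04 and H10 at 24.56, with 15.79 in wild type and at most 0.04 in the ALDH-low clones. GRID1 was at 1.19 CPM in H1, 3.24 in H6 and 4.28 in H10.

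Gene lists differed more in small shared shifts than in genes past the gap. Median gaps are given beside 0 over all genes, of which 41.7% lay above both clones and 37.5% below both. Past 1 the shares of all genes were 0.865% above and 4.94% below. Of 76 nuclear subunits of oxidative phosphorylation, which build the respiratory chain and ATP synthase, 66 were above both and 4 below, with a median gap of 0.35 and none past 1. Their summed level was 30714 CPM in H1, 33161 in wild type, 22983 in H6, 22573 in H10, 28935 in L1, 28521 in L3 and 25820 in L8. H6 and H10 were the lowest of the 7 libraries. NDUFA7, a complex I subunit, was at 198.29 CPM in H1, 220.13 in wild type, 99.2 in H6, 100.08 in H10 and 122.64 to 150.18 in the ALDH-low clones (adjusted p = 0.059). Of 82 cytosolic ribosomal protein genes 69 were above both and 3 below, with a median gap of 0.26. Of 10 neuronal and neuroendocrine genes 9 were above both and none below, with a median of 0.42, MAP2 and NLGN1 past 1. MAP2, a microtubule-associated protein of dendrites, was at 3.22 CPM in H1, 0.21 in H6 and 0.52 in H10. It reached 1 CPM only in H1 of these clones, and its difference did not pass the limma test. Of 18 HOX genes 12 were above both and 3 below, none past 1.

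Replication-dependent histones, which are made in S phase, lay on the other side, with 52 of 65 below both clones and 6 above, and a median gap of -0.26. Their summed level was 67924 CPM in H1, 95915 in H6, 85114 in H10, 35899 in wild type, 59029 in L1, 63737 in L3 and 48400 in L8. H1 was below H6 and H10 and above the other 4 libraries. Genes of DNA replication and the G1/S transition went less far, with 28 of 42 below both, none past 1, and a median of -0.09. Genes of G2/M and mitosis were 22 of 38 above both and 9 below, and MKI67 was the single one past 1 and low, at 101.09 CPM in H1, 71.1 in wild type, 272.19 in H6, 257.88 in H10, 281.52 in L1, 167.11 in L3 and 275.04 in L8 (adjusted p = 0.091). The first 200 transcript bases of MKI67 were 78% GC. Of 17 cytosolic chaperones 12 were below both, none past 1.

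Inflammatory and stem-like genes lay mostly below both clones in H1. Of 19 cytokine, chemokine and NF-kB target genes 16 were below both clones, none above, and 5 past 1, with a median gap of -0.41. Over all genes compared 37.5% were below both and 4.94% past 1 below. The list's median H6 minus H10 was -0.62, so the 2 reference clones also differed in it, and the median was -1.21 against H10 alone. CSF1, the macrophage growth factor, was at 7.79 CPM in H1, 32.69 in wild type, 20.52 in H6, 19.28 in H10, 112.08 in L1, 20.54 in L3 and 110.52 in L8 (adjusted p = 0.59). NFKBIE and TNFAIP3, inhibitors of NF-kB signalling, were at 5.72 and 2.66 CPM in H1, 16.99 and 9.97 in H6, and 15.12 and 7.64 in H10. Of 12 stem-like and pluripotency markers 8 were below both and none above, with a median of -0.34. Besides CD44, MYC was at 105.11 CPM in H1, 168.36 in H6 and 167.0 in H10, a difference that did not pass the limma test. In wild type MYC was at 92.28 CPM, below H1, and in the ALDH-low clones at 134.68 to 139.84. EZH2, a chromatin repressor subunit, was at 74.43 CPM in H1, 118.08 in H6 and 122.8 in H10. In wild type EZH2 was at 41.05 CPM, also below H1, and in the ALDH-low clones at 54.48 to 79.68. Of 14 growth factor receptors 7 were below both, 3 of them past 1, and 2 above. EGFR, the epidermal growth factor receptor, was at 8.62 CPM in H1, 19.78 in wild type, 26.84 in H6, 20 in H10 and 33.52 to 44.32 in the ALDH-low clones (adjusted p = 0.066). RYK, a Wnt co-receptor, was at 12.04 CPM in H1, 12.83 in wild type and 28.36 to 35.95 in the other 5 (adjusted p = 0.029). Of 25 TGF-beta and BMP genes 15 were below both and 4 above, with a median of -0.27 that was -0.05 once GC medians were subtracted.

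Some lists held genes far out in both directions. Over all genes compared 0.865% were past 1 above and 4.94% below. Of 32 unfolded protein and integrated stress response genes 4 were past 1 above and 1 below, with a median of 0. ASNS, asparagine synthetase, was at 151.2 CPM in H1, 100.83 in wild type, 39.11 in H6, 46.68 in H10 and 49.85 to 88.56 in the ALDH-low clones (adjusted p = 0.045). SLC7A11, the cystine importer, was at 22.61 CPM in H1, 6.67 in wild type, 5.62 in H6 and 5.72 in H10. In the ALDH-low clones SLC7A11 was at 7.0 to 15.16 CPM. CHAC1, which degrades glutathione, was at 8.82 CPM in H1, 3.24 in wild type, 2.71 in H6 and 1.88 in H10. L8 was above H1 in CHAC1, at 11.8 CPM. Neither SLC7A11 nor CHAC1 passed the limma test. SRXN1, an NRF2 target that repairs peroxiredoxins, was low instead, at 70.77 CPM in H1, 38.53 in wild type, 324.81 in H6, 314.6 in H10 and 218.64 to 374.05 in the ALDH-low clones (adjusted p = 0.022). Of 25 matrix genes 4 were past 1 above and 5 below, and of 13 Notch pathway genes HEY2 was above and HES4 and LFNG below. CDKN1A, the p53-induced cell cycle inhibitor, was at 58.02 CPM in H1, 90.0 in wild type, 132.4 in H6, 123.68 in H10 and 68.36 to 72.24 in the ALDH-low clones (adjusted p = 0.028).

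**Figure D5:**
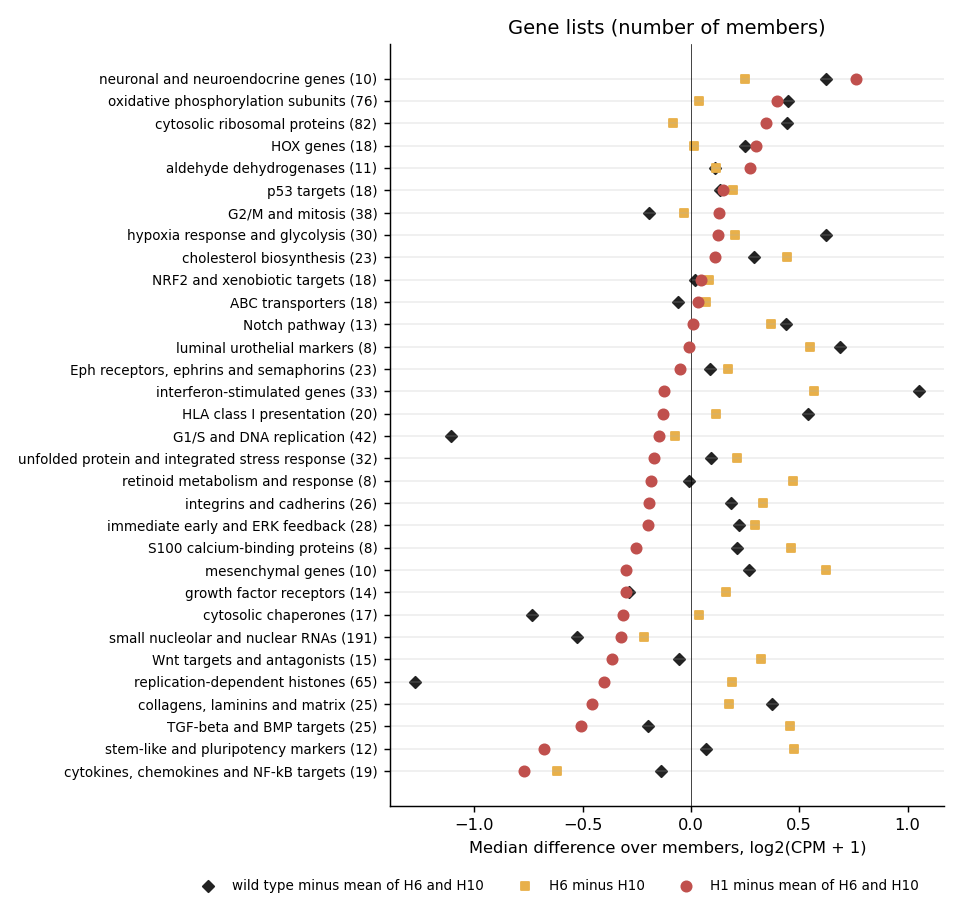
Median log2(CPM + 1) difference over the members of each gene list with 8 or more members (number in brackets) for H1 (red) and wild type (black) against the mean of H6 and H10, and for H6 minus H10 (yellow). H1 runs from -0.77 in the cytokine list to 0.76 in the neuronal list, and in the cytokine list H6 minus H10 is -0.62.

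Neighbouring genes were also described together, and whether genes apart in H1 cluster along chromosomes was not tested. In windows of 25 neighbouring genes the median difference of H1 from the mean of H6 and H10 ranged from -0.78 to 0.58 over 11695 overlapping windows, and 90% of windows lay between -0.27 and 0.24. The lowest windows were on chromosome 19 from IER2 to GIPC1 (-0.78), on chromosome 21 from RRP1B to COL6A2 (-0.73) and on chromosome 19 from SYDE1 to NR2F6 (-0.70). They held 6, 6 and 5 genes past 1 below, and the 3 highest windows held 1, 3 and 1 past 1 above. Over all genes 4.94% were past 1 below and 0.865% above. The windows were ranked by the same H1 differences, so more such genes in them follow from the choice. In the chromosome 21 window none of 25 genes was higher in H1, 24 were below both clones, and H6 minus H10 had a median of -0.07. It holds ADARB1 and also TRAPPC10, a vesicle tethering subunit, at 7.27 CPM in H1, 7.95 in wild type, 38.91 in H6 and 47.64 in H10 (adjusted p = 0.012). Wild type was low there too, with a median of -0.65, and the windows had a median GC at transcript starts of 63 to 71%. With GC medians subtracted the 3 low windows were at -0.69, -0.65 and -0.57. Over the 126 genes of chromosome 21 the median was -0.35, the lowest of any chromosome, against -0.14 for wild type and -0.03 for H6 minus H10.

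The highest window ran on chromosome 8 from IMPA1 to TRIQK, with a median of 0.58, 19 of 25 genes higher in H1 and 1 gene past 1 in each direction, LRRCC1 high and OSGIN2 low. OSGIN2 was at 27.54 CPM in H1, 60.41 in H6 and 61.72 in H10. The next was on chromosome 5 from PAPD4 to COX7C, at 0.44, and it holds VCAN and HAPLN1 together with SSBP2, at 5.8 CPM in H1, 2.36 in wild type, 0.62 in H6 and 0.52 in H10 (adjusted p = 0.097). The third was on chromosome 6 up to L3MBTL3, at 0.40, and it holds HEY2. Its 25 genes included 22 higher in H1, and the wild type median was 0.42. Near the limit of 1 CPM, KIAA1875 and Y_RNA entered with 1.0 CPM in H10, and TMEM38A stayed out with 0.99 in H6. Near a gap of 1, MAFG counted as low, at 6.16 CPM in H1, 13.34 in H6 and 15.68 in H10, as did B3GALT6, at 3.97, 10.06 and 8.96. SSBP3, at 5.13 CPM in H1, 11.25 in H6 and 11.28 in H10, stayed just outside, as did TMEM50B, at 8.34, 18.96 and 17.64.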

How the data were processed

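Total RNA libraries of 7 cultures were summarised by the authors in 1 deposited table of CPM per gene. The submitters' processing notes name the aligner BWA (version 0.5.9) and, as genome builds, hg19 and mm9; which build served which step, the gene annotation and the library type are not given in the sources used here. Values were used as deposited, and log2 values are log2(CPM + 1). Low CPM values are whole multiples of 1 read: 100% of values lay within rounding (0.0051 CPM) and 78.19 to 100% of those under 10 CPM, by library, within 0.1 read, with a counting floor of 3 reads at 0.118 to 0.123 CPM. On the recovered reads edgeR 4.0.16 called 11 genes higher and 167 lower. Intervals are exact 95% binomial intervals of 2 libraries' reads and cover counting error only.

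The gap, its counts and the medians of 42 gene lists are descriptions. limma 3.58.1 (lmFit, eBayes with trend, two-sided, Benjamini-Hochberg over 13058 genes) had 3 residual degrees of freedom. Nothing in the labels says that clones are independent derivations, so its p-values measure the spread between these libraries. The table holds 1017 genes whose 7 values are identical to those of a second gene. Transcripts of GENCODE matched 96.6% of genes. Members and lists were chosen with earlier results of these data known. The text draws its genes from GRIK2, ALDH1A1, the 15 largest gaps and 10 largest gaps to all 6 libraries in each direction, 3 genes per list, and 3 genes in each of the 3 highest and 3 lowest windows, with windows ranked by the median difference. RPL9, RPL9P9, POLR2J and EZH2 were added after their values were seen. Alternatives were another pseudocount, filter, scaling and variance model, each library left out, edgeR, DESeq2 1.42.0, and, chosen after seeing the data, subtraction of GC medians in 20 bins. Scripts ran in Python 3.11.15 and R 4.3.3 and were tested on simulated data.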

Additional observations from a re-analysis of the deposited data

How the results depend on the processing

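The direction of every named gene's gap past 1 was kept under all alternatives that gave it a value, and none of the 3 other scalings (median ratio, quantile, equal sums) turned the sign of a list median given above. Of 91 named genes past 1, a pseudocount of 5 CPM brought 32 to 1 or less, GC subtraction 4 and quantile normalization 3. Genes above both clones numbered 221 with a pseudocount of 0.1 CPM and 49 with 5 CPM, where those below were 345. Without H6 or H10 the counts ranged from 226 to 280 above and from 880 to 1076 below. limma called 12 genes higher with a pseudocount of 0.1 CPM and 10 with a filter at 5 CPM, and 166 lower with a pseudocount of 5 CPM, 167 without the variance trend and 137 after GC subtraction. edgeR gave 11 higher and 167 lower, all shared with limma, and DESeq2 131 and 815, with 17 and 256 shared. With 1 library left out, limma's calls ranged from 5 to 42 higher and from 4 to 432 lower. With H6 or H10 left out, H1 had to lie outside 1 clone only, so those gap counts could not fall by definition. A larger pseudocount shrinks a log2 gap and a smaller one widens it. Fewer libraries entered limma with 1 left out, and the cause of the other shifts was not tested. No paired analysis was possible because the ALDH-high and ALDH-low clones share only the number 1 and H1 is set against clones of its own group. With 1 library of H1, no gap has a replicate, and values near 0.12 CPM rest on about 3 reads.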

Other observations

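Genes named as copies of mitochondrial DNA were low in H1 and wild type together; they were chosen after their values were seen. All 19 that met 1 CPM (names starting MTND, MTATP or MTRNR2L) lay below both H6 and H10 in H1, 14 by more than 1 log2 unit. Over all genes compared 37.5% lay below both, and 4.94% by more than 1. The median gap of the 19 was -1.59, and their wild type median difference from the mean of H6 and H10 was -1.64. MTRNR2L2, the most abundant, was at 3661.07 CPM in H1, 3794.81 in wild type, 9273.94 in H6, 9006.78 in H10, 8342.74 in L1, 9056.7 in L3 and 9527.86 in L8. MTND2P28 was at 249.91 CPM in H1, 166.7 in wild type, 1068.0 in H6, 1147.32 in H10, 662.56 in L1, 737.3 in L3 and 975.84 in L8. These copies closely resemble each other and mitochondrial transcripts, so reads may be shared among them and they are not independent genes. Their transcript starts were not GC-rich, with 45% GC in MTND2P28 and 40% in MTND4P12, which was at 218.59 CPM in H1, 245.07 in wild type, 911.88 in H6 and 969.6 in H10. In contrast, nuclear oxidative phosphorylation genes had a median gap of 0.35.

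Chromosome 9 differed between the 2 reference clones, with a median H6 minus H10 of 0.36 over 487 genes, while H1 was at -0.18 against their mean. Chromosome 11 had a median H6 minus H10 of 0.25 over 703 genes and no gene of H1 past 1 above both, against 0.865% of all genes.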
